A study of Mus musculus with 59 samples.

Results

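S100 and annexin genes encode calcium-binding proteins, and 10 genes were chosen for description by name: S100a4, S100a6, S100a8, S100a9, S100a10, S100a11, Anxa1, Anxa2, Anxa5 and, beside these families, the zinc-finger gene Crip1. The list was chosen by measured values of these data, since S100a4 and Crip1 were higher in KO than in the other genotypes under both LPS and pIC. Of the 10 listed genes, 9 of the 32070 genes per table were found in both tables (5 S100 genes, 3 annexins and Crip1), all 9 passed the filter on low values in both, and S100a9 was not analysed here. The levels come from RNA sequencing of primary microglia, the resident macrophages of the brain, cultured from newborn mouse pups of 3 genotypes. KO cells carried Tbk1 fl/fl with Cx3CR1-Cre, HET cells carried Tbk1 fl/+ with Cx3CR1-Cre, and WT cells carried Tbk1 fl/fl without Cre, so that WT differs from KO in Cre as well, while HET shares Cre with KO. After 16 h of plating the cells received LPS (lipopolysaccharide, a bacterial cell wall component, 100 ng/mL), IL4 (interleukin-4, 20 ng/mL) or pIC (poly(I:C), a synthetic double-stranded RNA of a dose that the labels leave out), or were left untreated (UT), each for 24 h. The 12 groups hold 5 libraries each, named by replicate number, but untreated WT has 4 (its replicate 5 is not analysed here). Independent cultures, 5 in number, are named as the source.

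S100 proteins are small dimeric calcium sensors that work inside the cell and, once released, as alarm signals on receptors such as RAGE and TLR4. Annexins bind phosphatidylserine-bearing membranes when calcium rises, which serves membrane repair, vesicle traffic and, for annexin A1, the calming of inflammation through formyl peptide receptors. Several of the listed proteins pair directly: S100A10 with annexin A2, S100A11 with annexin A1, and S100A8 with S100A9 as calprotectin. TBK1 is a kinase downstream of innate immune sensors that switches on interferon genes.

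Values are TPM, a length-scaled share of all transcripts in a library, which keeps no record of depth. Over the 59 libraries the summed TPM ran from 999806 to 999936, and between 12428 and 14581 genes reached 1 TPM. Tbk1 checked the labels: under LPS it ranged over 12.1 to 25.8 TPM (KO), 56.5 to 66.7 TPM (HET) and 81.9 to 101 TPM (WT), untreated over 16.5 to 27.8, 32.3 to 36.9 and 45.1 to 53.8 TPM, and the genotypes did not overlap under any of the 4 treatments. Microglial markers differed in how far they were kept. Csf1r, the receptor for the growth factor that microglia depend on, was at 375 to 1057 TPM with LPS, 1047 to 1434 with IL4, 875 to 1654 with pIC and 1083 to 1404 untreated. Some other microglial markers were far lower with LPS in WT: Gpr34 averaged 0.247 TPM with LPS and 140.1 untreated, P2ry12 3.30 and 36.4, and Trem2 12.6 and 910.1. By the limma test described below, 10 of 12 microglial markers were called lower and 2 higher with LPS in WT. Of all genes 61.9% were called lower and 13.9% higher. The sum of 12 microglial markers was 2507 to 4245 TPM with LPS and 8651 to 10367 untreated in KO, 2472 to 2815 and 9676 to 11243 in HET, and 2177 to 2909 and 8849 to 10016 in WT. Transcripts listed as markers of other cell types and of cycling cells were present as well, and which cells made them was not tested. Summed over 8 oligodendrocyte lineage markers, WT libraries held 97.5 to 677 TPM with LPS, 560.0 to 1864 with IL4 and 884 to 2136 untreated, and summed over 7 astrocyte markers 97.1 to 163, 131 to 279 and 199 to 353 in the same order. Over 6 neuronal markers the sums in WT were 36.3 to 88.2, 108 to 229 and 142 to 247, over 7 cycling markers 152 to 169, 435 to 717 and 293 to 439.5, and over the 5 endothelial and mural markers with a row 3.89 to 6.76, 100.3 to 133 and 24.6 to 31.7. Dendritic cell markers summed to at most 2.98 TPM in the untreated, LPS and IL4 libraries and to at most 20.4 TPM with pIC. The part of these transcripts and of the microglial markers in the treatment differences below was not tested.

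All 5 S100 genes analysed lie on mouse chromosome 3, in the coordinates of the GRCm38.p6 assembly. S100a4 (Entrez 20198, 90603770 to 90606045, plus strand) and S100a6 (Entrez 20200, 90612894 to 90614414, plus strand) are 6848 bp apart, with S100a5 between them. S100a8 (Entrez 20201, 90669071 to 90670034, plus strand) follows 54.7 kb after S100a6. S100a11 (Entrez 20195, 93520496 to 93526288, plus strand) and S100a10 (Entrez 20194, 93555117 to 93564645) form a separate pair, 28.8 kb apart. The other members are dispersed: Anxa5 (Entrez 11747, 36448923 to 36475887, minus strand) is on chromosome 3, Anxa2 (Entrez 12306, 69453683 to 69491792, plus strand) on chromosome 9, Crip1 (Entrez 12925, 113152012 to 113153879, plus strand) on chromosome 12 and Anxa1 (Entrez 16952, 20373434 to 20390671, minus strand) on chromosome 19.

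The 250 bases before the gene start are shown for the 2 pairs of genes that moved most alike over the libraries, S100a4 with Crip1 and Anxa1 with Anxa2, and for S100a11, from the RefSeq promoter table of GRCm38.p6, which matched 8 of the 9 genes, all but S100a10. Capitals mark a motif match.
S100a4 (chr3:90603520-90603769, plus strand): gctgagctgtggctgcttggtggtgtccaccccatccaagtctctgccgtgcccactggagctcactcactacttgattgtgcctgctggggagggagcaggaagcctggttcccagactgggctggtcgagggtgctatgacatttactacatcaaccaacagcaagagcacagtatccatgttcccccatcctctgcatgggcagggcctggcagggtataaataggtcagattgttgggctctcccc
Crip1 (chr12:113151762-113152011, plus strand): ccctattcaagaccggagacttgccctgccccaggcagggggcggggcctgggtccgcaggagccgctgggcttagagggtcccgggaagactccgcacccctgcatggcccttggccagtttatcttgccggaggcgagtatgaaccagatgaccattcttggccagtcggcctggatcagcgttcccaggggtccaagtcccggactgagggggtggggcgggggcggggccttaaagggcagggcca
Anxa1 (chr19:20390672-20390921, minus strand): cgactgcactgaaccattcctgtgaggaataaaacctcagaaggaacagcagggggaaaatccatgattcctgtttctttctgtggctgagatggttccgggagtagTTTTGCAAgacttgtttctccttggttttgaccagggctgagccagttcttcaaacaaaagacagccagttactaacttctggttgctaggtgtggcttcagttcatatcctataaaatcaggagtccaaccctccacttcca
Anxa2 (chr9:69453433-69453682, plus strand): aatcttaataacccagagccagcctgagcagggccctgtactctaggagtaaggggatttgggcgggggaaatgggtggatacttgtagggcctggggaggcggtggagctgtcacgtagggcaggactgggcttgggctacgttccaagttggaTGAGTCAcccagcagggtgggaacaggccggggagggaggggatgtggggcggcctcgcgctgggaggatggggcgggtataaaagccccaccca
S100a11 (chr3:93520246-93520495, plus strand): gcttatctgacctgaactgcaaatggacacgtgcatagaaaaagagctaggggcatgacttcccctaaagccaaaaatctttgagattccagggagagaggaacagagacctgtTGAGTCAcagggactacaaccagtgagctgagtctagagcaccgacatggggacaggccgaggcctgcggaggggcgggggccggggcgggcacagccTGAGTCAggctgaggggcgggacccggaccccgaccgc
The motifs named next were searched on both strands, and the share of the 32851 promoters in the table that hold each in the same window is given beside it. The AP-1 motif TGANTCA (6.75% of promoters) was found in Anxa2, 95 bases before the start, and in S100a11, at 136 and 38 bases. The C/EBP motif TTGCNNAA (9.56%) was found in Anxa1 at 143 bases, and the PU.1 motif GAGGAAG (10.6%) in S100a8 at 171 bases. The STAT motif (TTC and GAA with any 4 bases between, 5.85%), the NF-kB motif (GGGA, any base, TTTCC, 0.356%) and the ISRE motif (TTTC, any 2 bases, TTTC, 2.98%) matched none of the 8 windows, and S100a4, S100a6, Crip1 and Anxa5 held none of the motifs. No matches of different motifs overlapped. Promoters of this length hold only part of a gene's regulatory sequence, and a match is a description of letters.

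LPS moved the S100 genes and Crip1 in opposite directions within the same libraries: S100a4 and Crip1 fell, and S100a8 and S100a11 rose. LPS against UT was compared within each genotype with limma on log2(TPM + 1), with Benjamini-Hochberg adjustment across 15908 genes, and a gene was called at an adjusted p under 0.05. In KO, 4 of the 9 genes were called higher and 2 lower, where 13.1% and 56.5% of all genes tested were called higher and lower. In HET 5 were called higher and 3 lower, against 14.3% and 59.7% of all genes, and in WT 5 and 3, against 13.9% and 61.9%. The median of all genes lay at -0.44 in KO, -0.51 in HET and -0.59 in WT on the log2 scale, so values relative to it are given where they matter; under median-of-ratios scaling 5024 genes were called higher and 5139 lower in WT, against 2210 and 9854 as fitted. The medians of the 9 members were 0.40, 0.57 and 0.41 in the same order. S100a4 and Crip1 were chosen on LPS libraries of KO and the other genotypes, so these comparisons share libraries with that choice. In bulk RNA, fewer cells of a type and less RNA per cell cannot be told apart.

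**Figure D1:**
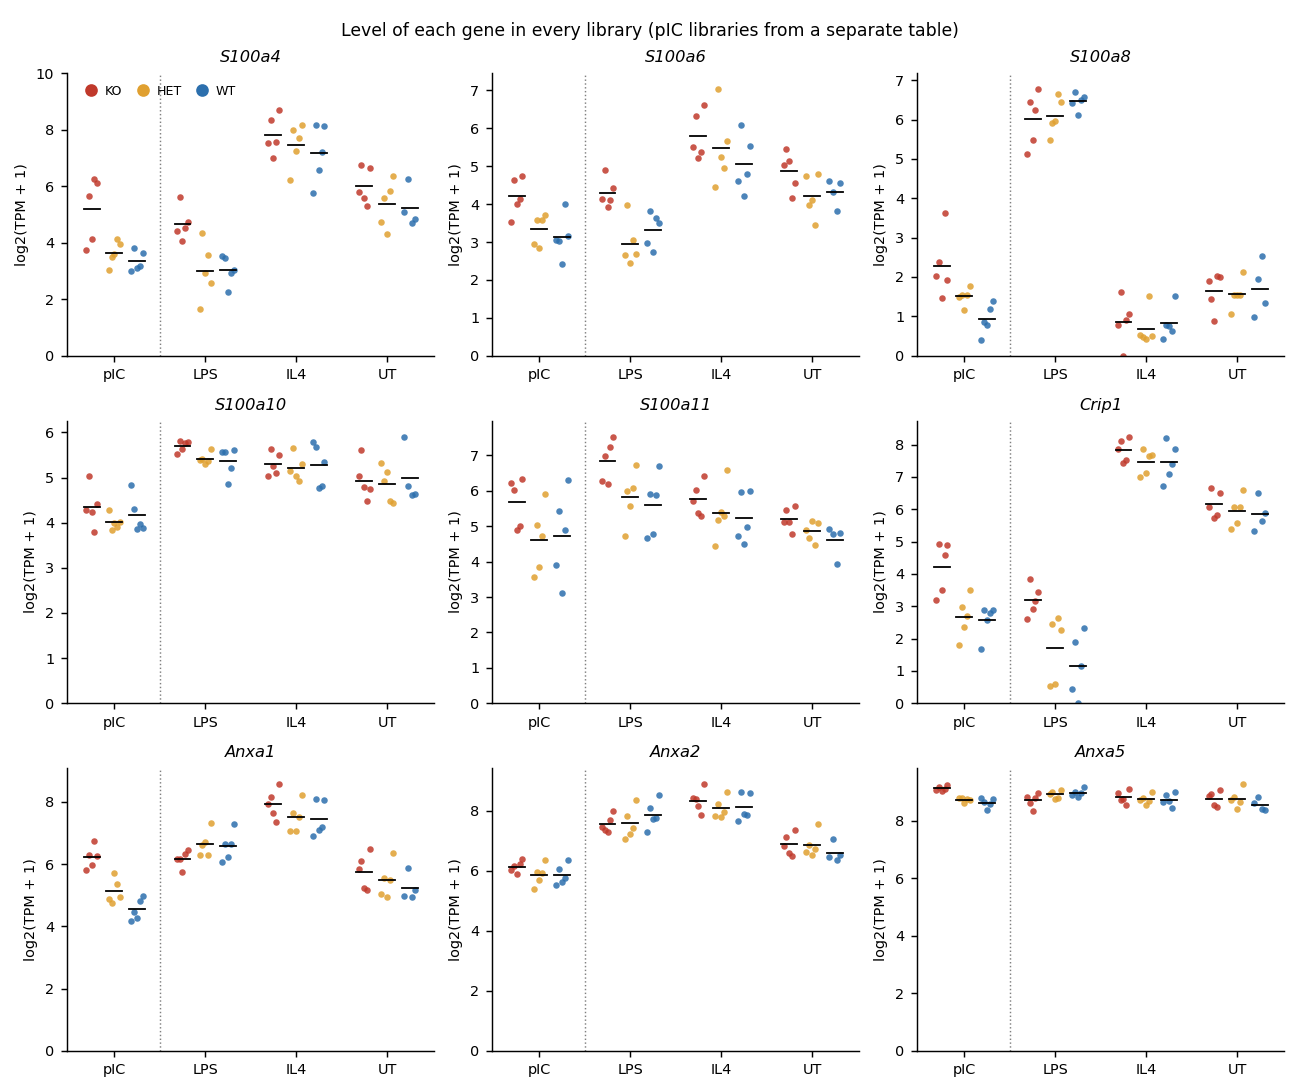
Level of the 9 genes as log2(TPM + 1), with 1 panel per gene and 1 point per library, coloured by genotype (KO, HET, WT from left to right within each treatment). Horizontal bars are group means, the dotted line separates the pIC libraries, which come from a table of their own. S100a4 and Crip1 are highest with IL4 and lowest with LPS or pIC, S100a8 is high with LPS, and Anxa5 lies between 320 and 613 TPM in all 59 libraries.

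S100a4, a regulator of non-muscle myosin and cell motility, had 10.4, 10.1, 3.74, 6.69 and 7.10 TPM in WT cells with LPS, against 32.9, 76.2, 25.0 and 27.5 TPM untreated. All 5 LPS libraries lay below all 4 untreated ones, and the difference was -2.18 ± 0.49 (adjusted p = 1.57e-04), or -1.60 relative to the median gene. HET cells had 2.13, 19.3, 6.62, 10.9 and 5.01 TPM with LPS and 25.9, 46.9, 18.9, 55.4 and 81.4 untreated, a difference of -2.35 ± 0.47 (adjusted p = 2.82e-05), with 1 LPS library, replicate 2, above the lowest untreated one. In KO the levels were 20.6, 47.6, 15.7, 22.0 and 25.4 TPM with LPS and 54.6, 107, 46.6, 38.1 and 99.2 untreated. That difference was -1.34 ± 0.47 (adjusted p = 0.0107), or -0.90 relative to the median gene, and it did not pass after median-of-ratios scaling of the libraries (-0.83, adjusted p = 0.161) or quantile normalization (-1.04, adjusted p = 0.0712).

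Crip1, a small LIM-domain zinc-finger protein, fell further. WT cells had 0.367, 2.70, 0, 1.21 and 4.03 TPM with LPS, with replicate 3 listed at 0, against 39.5, 89.3, 49.2 and 58.0 untreated, a difference of -4.68 ± 0.40 (adjusted p = 3.94e-13). HET cells had 0.457, 4.48, 0.501, 5.23 and 3.82 TPM with LPS and 41.3, 66.0, 46.5, 66.0 and 96.7 untreated (-4.24 ± 0.38, adjusted p = 9.95e-13). KO cells kept 5.05, 13.5, 6.58, 8.00 and 9.92 TPM with LPS, against 66.8, 101, 51.8, 56.0 and 89.2 untreated (-2.96 ± 0.38, adjusted p = 1.22e-08). The LPS and untreated libraries did not overlap in any genotype.

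S100a6, an S100 protein of proliferating and mesenchymal cells, moved less. It averaged 9.45 ± 3.11 TPM with LPS and 19.5 ± 4.67 untreated in WT (SD, n = 5 and 4), a difference of -0.996 ± 0.39 (adjusted p = 0.0217). HET gave -1.26 ± 0.37 (adjusted p = 0.00272) and KO -0.57 ± 0.37 (adjusted p = 0.168), the last not called. Relative to the median gene the values were -0.13 (KO), -0.74 (HET) and -0.41 (WT), and neither call passed under the other scalings (adjusted p from 0.121 to 0.461). The WT call was also lost without untreated replicate 1 or 4 or LPS replicate 3 (adjusted p from 0.0557 to 0.0631).

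S100a8, a subunit of calprotectin and an abundant product of neutrophils and inflamed myeloid cells, rose most. WT cells had 85.2, 104, 68.7, 89.3 and 93.7 TPM with LPS and 0.991, 2.88, 4.79 and 1.54 untreated (4.76 ± 0.32, adjusted p = 4.31e-16). HET cells had 43.5, 58.8, 61.5, 99.4 and 86.7 TPM with LPS, against 1.07, 1.92, 1.92, 1.90 and 3.40 untreated (4.53 ± 0.31), and KO cells 33.9, 86.5, 43.6, 75.3 and 108 TPM with LPS, against 2.72, 1.73, 0.850, 3.09 and 3.00 untreated (4.36 ± 0.31). No LPS library of any genotype overlapped an untreated one. Of 10 neutrophil markers 7 have a row, and with LPS their summed level was 168 to 317 TPM (KO), 137 to 422 TPM (HET) and 126 to 245 TPM (WT), against 84.3 to 113, 86.0 to 118 and 93.2 to 119 untreated in the same order. Mmp8, a collagenase of neutrophil granules, stood at 106 TPM with LPS and 0.289 untreated in WT, while Ngp, Cxcr2 and Mpo were listed at 0 in all 15 LPS libraries. Csf3r, another marker of the list, went the other way, averaging 65.8 TPM with LPS and 99.9 untreated in WT. Of 3 tested neutrophil markers 2 were called higher and 1 lower in WT, where 13.9% and 61.9% of all genes were.

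S100a11, the partner of annexin A1, and S100a10, the partner of annexin A2, lie side by side and both pointed up with LPS. S100a11 in KO had 75.8, 125, 71.9, 149 and 183 TPM with LPS and 34.1, 42.7, 33.4, 26.7 and 46.6 untreated, with no overlap (1.63 ± 0.37, adjusted p = 1.99e-04). In HET the difference was 0.96 ± 0.37 (adjusted p = 0.0195) and in WT 0.98 ± 0.39 (adjusted p = 0.0232), both with overlapping libraries. Without replicate 5 of HET with LPS the HET call was lost (adjusted p = 0.0855), and without replicate 5 of WT with LPS or replicate 3 of untreated WT the WT call was lost (adjusted p = 0.107 and 0.104). S100a10 averaged 51.2 ± 4.26 TPM with LPS and 30.6 ± 10.1 untreated in KO (SD, n = 5 each; 0.77 ± 0.22, adjusted p = 0.00196). It was called in HET (0.57 ± 0.22, adjusted p = 0.0189) and not in WT (0.37 ± 0.23, adjusted p = 0.142), where replicate 1 of the untreated cells, at 58.8 TPM, was the highest library of either group. The HET call was lost without replicate 4 or replicate 5 of untreated HET (adjusted p = 0.063 and 0.0655), and the WT difference was called without untreated replicate 1 (0.67, adjusted p = 0.00687) and under either other scaling.

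The annexins were called higher with LPS or not called. Anxa1, whose protein acts through formyl peptide receptors, had 66.1, 98.8, 74.7, 99.3 and 156 TPM with LPS and 30.2, 57.3, 30.0 and 35.3 untreated in WT (1.34 ± 0.31, adjusted p = 1.82e-04). It was called in HET (1.16 ± 0.29, adjusted p = 5.21e-04) and not in KO, which had 70.1, 70.3, 52.1, 78.4 and 86.1 TPM with LPS and 56.0, 67.3, 36.5, 34.7 and 88.4 untreated (0.40 ± 0.29, adjusted p = 0.219). The KO numbers pair the cultures, and with the replicate block the KO difference passed (adjusted p = 0.00922), as it did after median-of-ratios scaling (0.92, adjusted p = 0.0244). Anxa2, which links membranes to actin and binds plasminogen with S100A10, was called in KO (0.68 ± 0.24), HET (0.73 ± 0.24) and WT (1.27 ± 0.26), with adjusted p from 3.57e-05 in WT to 0.0121 in KO. Anxa5, the protein used as a probe for dying cells, averaged 421 ± 67.7 TPM with LPS and 439.9 ± 78.4 untreated in KO (SD, n = 5 each). It was called in WT (0.41 ± 0.14, adjusted p = 0.0102) and not in HET (0.15 ± 0.14) or KO (-0.062 ± 0.14), but median-of-ratios scaling gave calls in both, at 0.77 in HET (adjusted p = 8.34e-04) and 0.47 in KO (adjusted p = 0.0383), the KO value thereby changing sign.

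S100a4, Crip1, Anxa1 and Anxa2 were higher with IL4 than untreated in all 3 genotypes. By limma, 4 of 9 genes were called higher in KO, 5 in HET and 4 in WT, where 5.38%, 3.97% and 3.68% of all genes were called higher in the same order. None of the 9 was called lower in any genotype, where 3.03%, 3.09% and 2.63% of all genes were, although S100a8 had an unadjusted p under 0.05 in each. The median of all genes moved by -0.056 to -0.11, so the scale is nearly level here.

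Anxa1 rose in every genotype. KO cells had 242, 281, 200.1, 163 and 377 TPM with IL4 and 56.0, 67.3, 36.5, 34.7 and 88.4 untreated (2.17 ± 0.29, adjusted p = 4.77e-07). HET cells had 131, 198, 133, 182 and 297 TPM with IL4, against 32.1, 45.7, 29.8, 43.9 and 80.7 untreated (2.02 ± 0.29, adjusted p = 2.24e-06), and WT cells 118, 271, 134, 144 and 268 TPM with IL4, against 30.2, 57.3, 30.0 and 35.3 untreated (2.22 ± 0.31, adjusted p = 1.37e-06). The IL4 and untreated libraries of a genotype did not overlap. Anxa2 differed by 1.46 ± 0.24 in KO, 1.23 ± 0.24 in HET and 1.51 ± 0.26 in WT, again without overlap, and averaged 331 ± 89.2 TPM with IL4 and 119 ± 30.2 untreated in KO (SD, n = 5 each).

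S100a4 had 182, 321, 126, 186 and 415 TPM with IL4 in KO, 73.8, 251, 151, 207 and 288 in HET and 53.2, 284, 94.4, 147 and 282 in WT. Untreated levels are those given above, and the differences were 1.81 ± 0.47 in KO (adjusted p = 0.00831), 2.10 ± 0.47 in HET (adjusted p = 0.00192) and 1.95 ± 0.49 in WT (adjusted p = 0.00904). The groups of KO did not overlap, while those of HET and WT did, and the WT call was lost when only its own libraries entered the fit (adjusted p = 0.0794). Libraries of a group differed widely, with replicate 1 of WT at 53.2 TPM and replicate 2 at 284 TPM under the same treatment. With IL4, replicates 2 and 5 held the highest S100a4 levels in every genotype. Crip1 had 233, 274, 173, 184 and 302 TPM with IL4 in KO, 127, 235, 139.8, 200.2 and 206 in HET and 104, 296, 135, 167 and 231 in WT, above all untreated libraries of the same genotype, with differences of 1.68 ± 0.38, 1.53 ± 0.38 and 1.61 ± 0.40 (adjusted p = 0.00199, 0.00608 and 0.00749). With a pseudocount of 0.1 these were 1.69 ± 0.61, 1.54 ± 0.61 and 1.63 ± 0.64 and did not pass (adjusted p = 0.0851, 0.141 and 0.152). The estimates hardly moved, while the SE grew. That fit shares 1 estimate of the spread with the LPS libraries, where Crip1 was at 0 to 13.5 TPM, and their part in the SE was not tested.

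**Figure D2:**
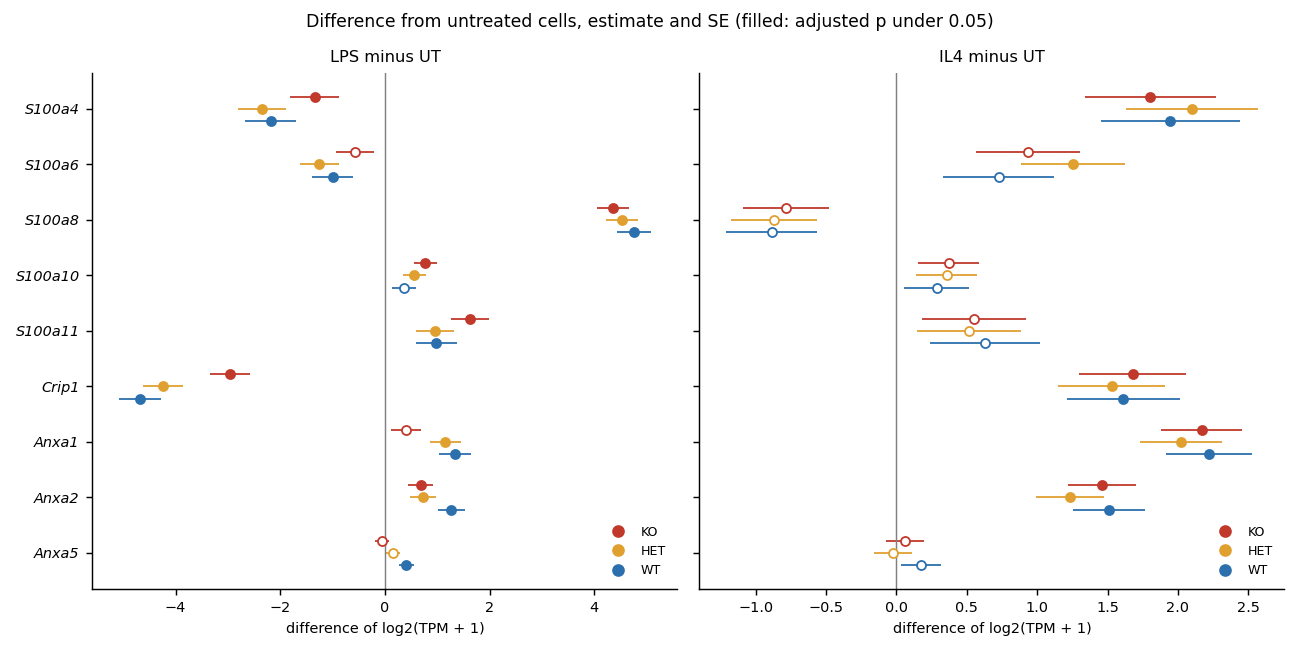
Difference of log2(TPM + 1) from untreated cells for LPS (left) and IL4 (right), by genotype, with points for the limma estimate and bars for its SE. Filled points were called at an adjusted p under 0.05. S100a4 and Crip1 are below 0 with LPS and above 0 with IL4 in all 3 genotypes, and Anxa1 and Anxa2 are above 0 with both.

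S100a6 pointed up with IL4 by 0.94 ± 0.37 in KO, 1.26 ± 0.37 in HET and 0.73 ± 0.39 in WT and was called in HET (adjusted p = 0.0270). The HET libraries with IL4 had 21.0, 129.9, 36.8, 30.1 and 49.9 TPM. Without the second, which also held the highest sum of 5 fibroblast markers of all libraries (97.2 TPM, against 2.91 to 19.5 TPM in KO and 1.05 to 8.33 TPM in WT with IL4), the difference was 0.87 (adjusted p = 0.164), and the call was also lost without untreated replicate 2, 3 or 4 or IL4 replicate 5 of HET (adjusted p from 0.0615 to 0.111). In KO it was called with the replicate block (adjusted p = 0.0334). S100a8 stayed low, at 0 to 2.06 TPM with IL4 in KO, 0.351 to 1.89 in HET and 0.339 to 1.84 in WT. Its differences of -0.78, -0.87 and -0.89 were not called as fitted but were with the replicate block (adjusted p = 0.0207, 0.0105 and 0.0114). S100a10 gave 0.37, 0.36 and 0.29, S100a11 0.55, 0.52 and 0.63 and Anxa5 0.058, -0.027 and 0.17 for KO, HET and WT, none of them called. The IL4 response itself was compared between KO and WT, and none of the 9 genes was called (limma, 0 with an unadjusted p under 0.05, estimates from -0.14 to 0.21), as none of all genes was (0%).

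**Figure D3:**
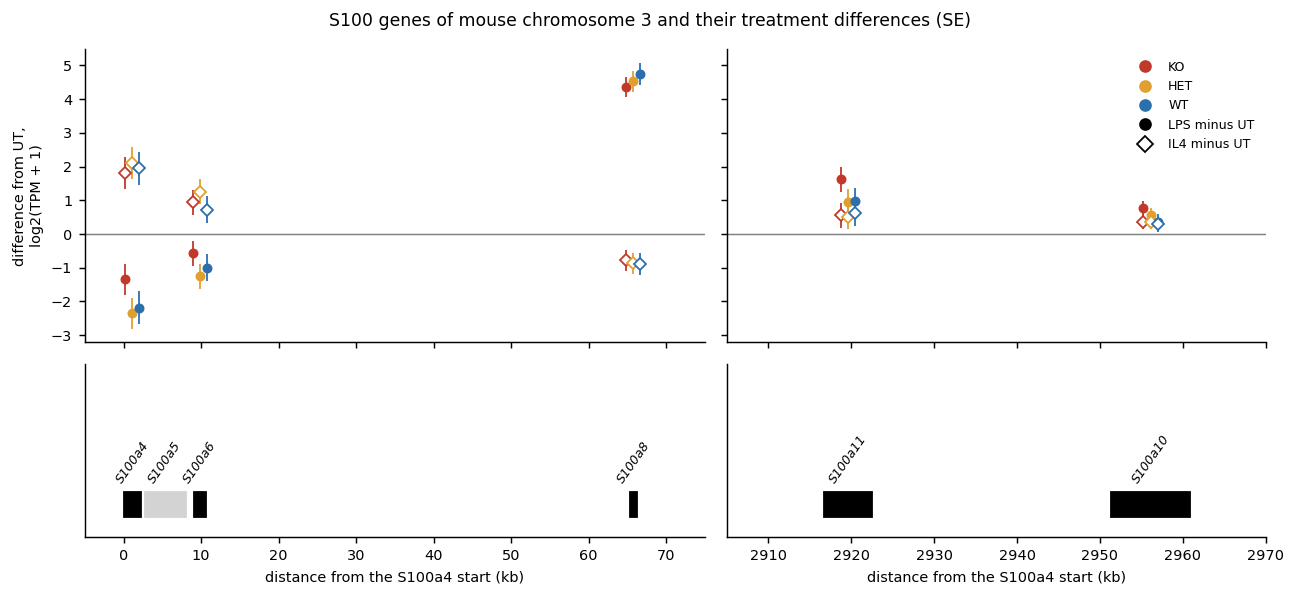
The S100 genes of chromosome 3 by distance from the S100a4 start in kb, in 2 windows (boxes are gene spans, grey for S100a5, which is no member), with each gene's difference from untreated cells above it (filled circles LPS, open diamonds IL4, bars SE, colour by genotype). S100a4 and S100a6 have LPS estimates below 0 and IL4 estimates above 0, S100a8, 54.7 kb on, the reverse, and S100a11 and S100a10 have all estimates above 0.

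With pIC, levels can only be set beside the untreated ones, since the tables were deposited separately, and no test was made. S100a4 averaged 44.2 ± 28.8 TPM with pIC in KO, 11.9 ± 3.62 in HET and 9.35 ± 2.60 in WT (SD, n = 5 each), and untreated 69.0 ± 31.6, 45.7 ± 24.9 and 40.4 ± 24.1. Crip1 averaged 19.9 ± 10.1, 5.82 ± 2.96 and 5.20 ± 1.76 TPM with pIC and 72.9 ± 21.3, 63.3 ± 21.8 and 59.0 ± 21.6 untreated, and Anxa2 69.8 ± 9.33, 58.7 ± 15.4 and 58.5 ± 14.7 with pIC and 119 ± 30.2, 119 ± 39.6 and 97.9 ± 23.0 untreated, in the same genotype order. S100a8 did not reach its LPS level in any pIC library (0.325 to 11.4 TPM with pIC, 33.9 to 108 with LPS). S100a10 ran from 13.0 to 31.5 TPM with pIC and from 20.7 to 58.8 untreated.

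Over the 9 groups of the first table, S100a4 and Crip1 had the same order of treatments in every genotype, with IL4 highest, UT next and LPS lowest. For S100a4 the genotype means were 246 (KO), 194 (HET) and 172 TPM (WT) with IL4, 69.0, 45.7 and 40.4 untreated and 26.2, 8.79 and 7.60 with LPS. Within IL4 and within UT every pair of genotypes overlapped, and with LPS KO lay apart from WT while HET overlapped both. Anxa1 and Anxa2 ran in another order, IL4 highest, LPS next and UT lowest in every genotype. Across the 44 libraries of that table Crip1 and S100a4 had a Pearson r of 0.934, S100a6 and S100a4 0.896, Anxa2 and Anxa1 0.951, S100a11 and S100a10 0.619 and Crip1 and S100a8 -0.911. These values describe libraries that fall into treatment groups and share cultures. By the same measure, among genes with a mean of at least 5 TPM, those most like S100a4 were Lat2 (r = 0.952), Atp6v0d2 (0.948), Mfsd12 (0.938), Steap3 (0.937) and Arl6ip5 (0.937). Those most like Crip1 were Mfsd12 (0.987), Cd300lb (0.984), Tnfsf12 (0.98), Cd84 (0.979) and Psap (0.978). Mfsd12 stood in both sets, at 37.0 ± 6.86 TPM in KO with LPS and 21.5 ± 5.20 in WT with LPS, and at 77.6 and 69.3 TPM untreated. The pIC libraries were not part of this measure. There Mfsd12 averaged 115.7 TPM in KO, 116.6 in HET and 113.5 in WT, without the higher KO mean of S100a4 and Crip1.

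**Figure D4:**
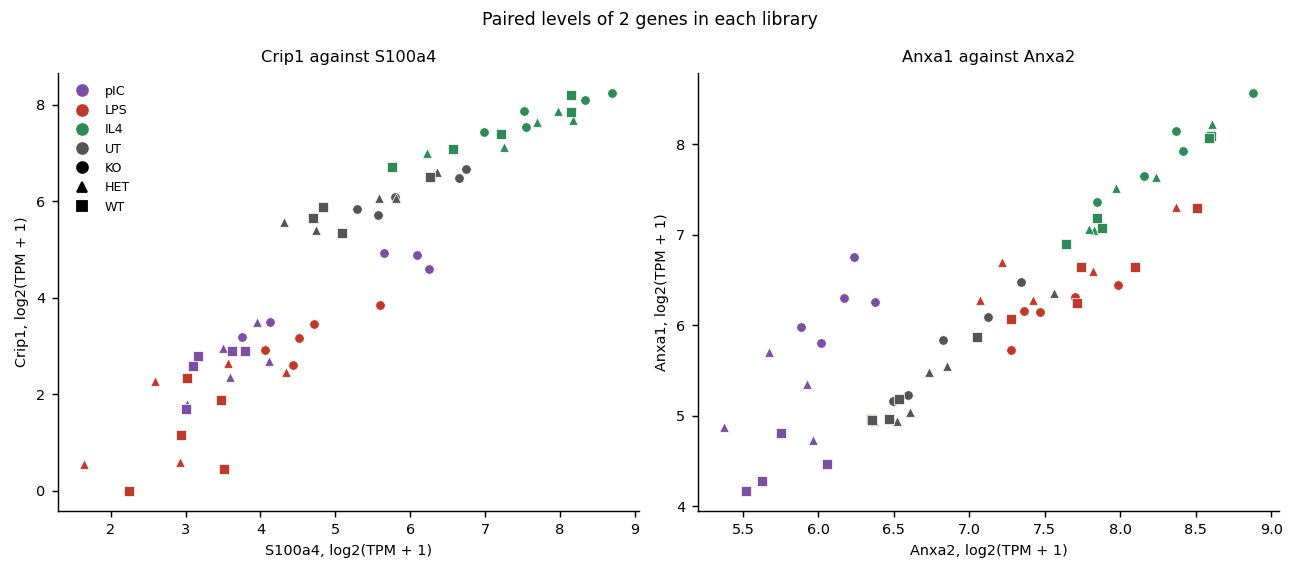
Level of Crip1 against S100a4 (left) and of Anxa1 against Anxa2 (right), each as log2(TPM + 1), with 1 point per library, colour for treatment and shape for genotype. The pIC points come from a separate table. Over the 44 UT, LPS and IL4 libraries r was 0.934 on the left and 0.951 on the right, and the IL4 points lie at the upper right of both panels.

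Differences of KO from HET and from WT were described, not tested, under LPS and pIC, because the members were chosen there. With LPS, S100a4, Crip1 and S100a6 were higher in all 5 KO libraries than in any WT library, although S100a6 overlapped under either other scaling. For S100a4 the KO libraries had 20.6, 47.6, 15.7, 22.0 and 25.4 TPM, against 2.13, 19.3, 6.62, 10.9 and 5.01 in HET and 10.4, 10.1, 3.74, 6.69 and 7.10 in WT, a difference of 1.63 ± 0.47 from WT and 1.65 ± 0.47 from HET. Crip1 differed by 2.04 ± 0.38 from WT and 1.501 ± 0.38 from HET, and S100a6 by 0.97 ± 0.37 and 1.34 ± 0.37. S100a11 overlapped but pointed the same way (1.25 ± 0.37 and 1.02 ± 0.37). The 3 genes without overlap among 9, all higher, stand beside 7.56% of all genes higher without overlap and 8.61% lower, from which nothing is read. Against HET none of the 9 was free of overlap, where 6.5% of all genes were higher and 6.89% lower without overlap. HET replicate 2, with 19.3 TPM of S100a4, reached above KO replicate 3, with 15.7 TPM.

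S100a8, S100a10 and the annexins overlapped between KO and WT with LPS. Anxa1 was -0.42 ± 0.29, Anxa2 -0.31 ± 0.24, Anxa5 -0.26 ± 0.14, S100a8 -0.45 ± 0.31 and S100a10 0.34 ± 0.22 for KO minus WT. As a difference of LPS responses, KO minus WT, Crip1 gave 1.72 ± 0.55, S100a4 0.84 ± 0.68 and Anxa1 -0.94 ± 0.42, where the median of all genes was 0.12. Some markers of other myeloid cells also differed in these libraries. The sum of 7 border macrophage markers with LPS was 937 to 1487 TPM (KO), 483 to 964 TPM (HET) and 463 to 553 TPM (WT). Pf4, a platelet chemokine that border macrophages also make, accounted for 1006 TPM in KO and 137 in WT on average (2.93 ± 0.33). Ms4a7, the other abundant marker of the list, went the opposite way, with 179.8 TPM in KO and 379 in WT (-1.15 ± 0.17, adjusted p = 9.07e-07). Cd163 was listed at 0 in all 5 WT libraries, and Lyve1 and Cbr2 averaged under 1 TPM in both. Mrc1 had 2.9 to 11.9 TPM in KO, 0.945 to 4.955 in HET and 0.80 to 1.80 in WT (KO minus WT 1.79 ± 0.29). Of the 5 border macrophage markers tested by limma, Pf4 and Mrc1 were called up for KO minus WT and Ms4a7 down. Over 7 monocyte markers the sums were 20.3 to 63.3, 20.7 to 29.4 and 18.1 to 30.0 TPM, with Chil3 at 0 in all 15. Within that list Ly6c2 had 4.10 to 24.1 TPM in KO, 0.913 to 2.63 in HET and 0 to 1.735 in WT. It was the 1 marker of 5 tested monocyte markers called up for KO minus WT (limma, 3.23 ± 0.26), and 0 were called down. Over 5 fibroblast markers the sums were 2.81 to 12.8, 1.57 to 4.07 and 1.77 to 5.02. Over 12 microglial markers they were 2507 to 4245, 2472 to 2815 and 2177 to 2909. Their part in the differences of S100a4, Crip1 and S100a6 was not tested.

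**Figure D5:**
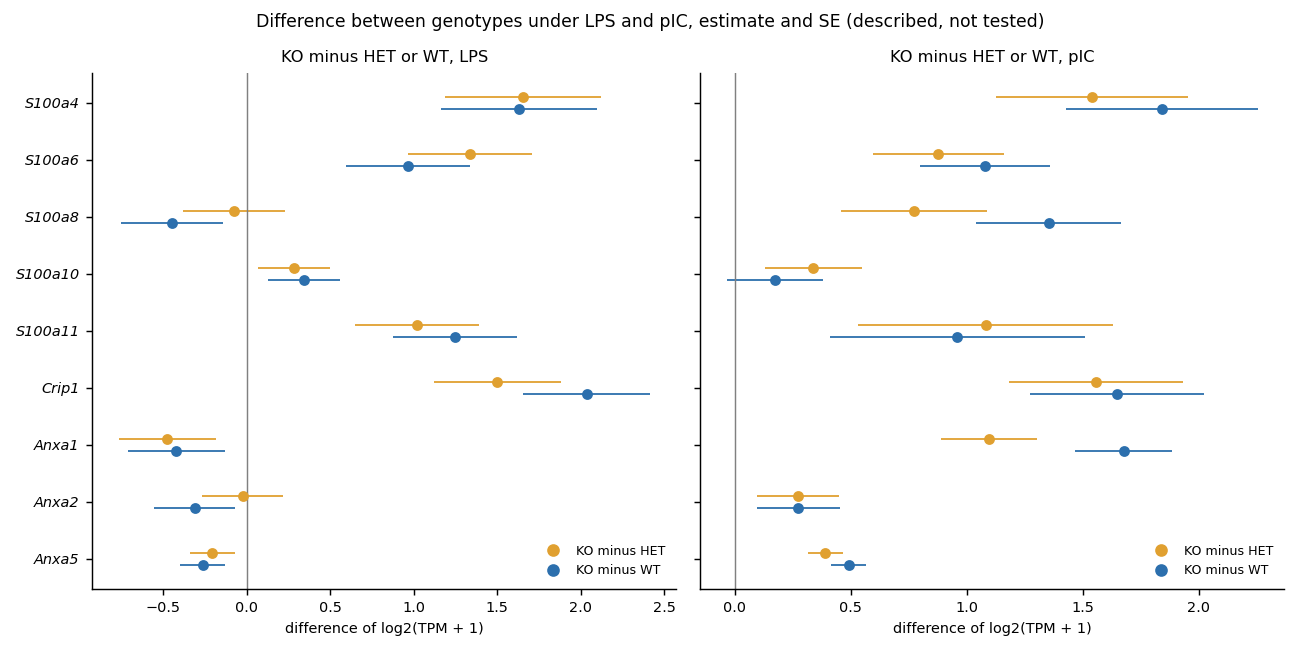
Difference of log2(TPM + 1) of KO from HET and from WT, with LPS (left) and pIC (right), points for the limma estimate and bars for its SE, described without a test. S100a4, Crip1, S100a6 and S100a11 are above 0 in all 4 comparisons, while Anxa1 is below 0 with LPS (-0.42 from WT) and above 0 with pIC (1.68 from WT).

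With pIC, all 9 genes had a KO mean above the WT mean. Anxa1 was the clearest, with 55.0, 77.8, 62.1, 107 and 75.5 TPM in KO, 28.4, 25.7, 51.3, 39.8 and 29.8 in HET and 17.0, 21.2, 18.5, 27.1 and 30.3 in WT. Every KO library lay above every HET and WT library, by 1.68 ± 0.21 over WT and 1.10 ± 0.21 over HET on the log2 scale. Anxa5 was also free of overlap with 533, 569, 515, 550.4 and 604 TPM in KO, 439, 437, 389.7, 432 and 415 in HET and 437, 397, 333, 381 and 429 in WT (0.49 ± 0.075 over WT). Crip1 had 8.16, 29.2, 10.2, 23.2 and 28.6 TPM in KO, 2.45, 6.82, 4.11, 5.48 and 10.2 in HET and 2.23, 6.41, 4.99, 5.93 and 6.45 in WT (1.65 ± 0.38 over WT), with no overlap with WT and some with HET. S100a8 had 3.05, 4.19, 1.74, 11.4 and 2.76 in KO, 1.82, 1.94, 1.23, 1.94 and 2.40 in HET and 0.325, 0.815, 0.714, 1.28 and 1.62 in WT (1.35 ± 0.31 over WT), and without KO replicate 4 the difference was 1.01.

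S100a4 had 12.5, 49.3, 16.5, 75.4 and 67.4 TPM with pIC in KO, 7.14, 10.4, 11.0, 16.4 and 14.5 in HET and 7.04, 12.9, 7.54, 7.96 and 11.3 in WT. KO replicates 1 and 3 sat near the WT libraries and the other 3 well above them, so that the difference from WT, 1.84 ± 0.41, was the largest of the 9 although 1 pair of libraries overlapped. Crip1 was also lower in KO replicates 1 and 3 than in the other KO libraries. Marker sums split the same way. Microglial markers summed to 6627 and 6920 TPM in replicates 1 and 3, and to 8129, 10112 and 8587 in replicates 2, 4 and 5. Fibroblast markers summed to 19.2 and 12.4 TPM, and to 4.35, 0.831 and 4.06. A link between these splits was not tested. From WT, S100a6 differed by 1.08 ± 0.28, S100a11 by 0.96 ± 0.55, Anxa2 by 0.27 ± 0.18 and S100a10 by 0.17 ± 0.21, with overlap. Without WT replicate 3 the S100a11 difference was 0.56, and S100a10 gave 0.0057 without KO replicate 2 and 0.34 without WT replicate 1. The 4 genes of 9 without overlap with WT, all higher, stand beside 2.64% of all 13919 genes higher and 7.05% lower without overlap, and the 2 of 9 without overlap with HET, Anxa1 and Anxa5, beside 1.98% and 4.65%. Border macrophage markers summed to 665 to 744 TPM in KO, 610.3 to 896 in HET and 701 to 781 in WT with pIC, monocyte markers to 19.2 to 51.5, 21.0 to 46.0 and 20.6 to 42.5, fibroblast markers to 0.831 to 19.2, 0.875 to 4.97 and 0.965 to 18.4, and microglial markers to 6627 to 10112, 5522 to 7502 and 5182 to 6428. Endothelial and mural markers summed to 74.4 to 90.7 TPM in KO, 47.3 to 76.6 in HET and 40.9 to 60.5 in WT, without overlap between KO and WT, and among them Flt1, a VEGF receptor, averaged 38.9 TPM in KO and 17.6 in WT (1.10 ± 0.19, adjusted p = 0.00157). The part of these markers in the differences was not tested.

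Without LPS or pIC the genotypes were compared by test, and none of the 9 genes was called. Untreated, KO against WT gave estimates from -0.059 to 0.79 (limma, lowest adjusted p = 0.759, 0 with an unadjusted p under 0.05), where 0.0314% of all genes were called, and KO against HET gave 0.0013 to 0.65 (0 with an unadjusted p under 0.05), where 0.00629% were. S100a4 averaged 69.0 ± 31.6 TPM in untreated KO, 45.7 ± 24.9 in HET and 40.4 ± 24.1 in WT (SD, n = 5, 5 and 4), a difference of 0.79 ± 0.49 from WT. With IL4, KO against WT gave 0.028 to 0.75, with 1 gene, S100a6, at an unadjusted p under 0.05 and 0.044% of all genes called. KO against HET with IL4 gave 0.087 to 0.43 (0 with an unadjusted p under 0.05), where 0.00629% of all genes were called. HET against WT was tested by limma under every treatment and gave no call. With LPS, with IL4 and untreated, 0.0126% of all genes were called in each, and 0 members had an unadjusted p under 0.05. With pIC 0% of all genes were called, and 1 member, Anxa1, had an unadjusted p under 0.05 (difference 0.58 ± 0.21). S100a4 and Crip1 were chosen on values that include the LPS and pIC libraries of HET and WT. Nothing is therefore read from their HET against WT results with LPS and pIC.

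Other genes of the same families, from lists chosen with earlier results of these data known, were read with the same test. Of 11 other S100 family names 5 were tested, and in WT with LPS 4 were called lower and 0 higher (median -1.61, where all genes had -0.59), while under either other scaling 3 were lower and 1 higher. S100b, a product of astrocytes and oligodendrocyte precursors, stood at 22.0 TPM with LPS and 114 untreated (-2.49 ± 0.45), beside the fall in the astrocyte and oligodendrocyte sums given above. S100a1, best known from muscle, gave -1.61 ± 0.14 and S100a16 -1.79 ± 0.46, and the fourth, S100pbp, encodes an S100P-binding protein that is no S100 protein itself. None of the 5 was called with IL4 in WT. Of 6 other annexins tested, 2 were called higher and 3 lower with LPS in WT, a balance of 4 and 1 after median-of-ratios scaling, and 2 higher with IL4. Anxa3 was -1.82 ± 0.097 with LPS, and Anxa4 1.75 ± 0.22 with IL4, at 272 TPM against 79.1 untreated. Crip2, the tested relative of Crip1, gave -0.87 ± 0.24 with LPS, which did not pass under the other scalings.

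The counts for the lists that follow are for WT, where LPS gave 13.9% of all genes called higher and 61.9% called lower, and IL4 3.68% and 2.63%. Receptors of S100 proteins and annexin A1 rose with LPS in WT in 7 of 12 tested genes and fell in 3 (9 and 2 after median-of-ratios scaling). The formyl peptide receptors moved most, Fpr1 to 1030.3 TPM with LPS against 1.80 untreated (8.71 ± 0.23) and Fpr2 to 396 against 2.24 (7.33 ± 0.28). Cd14, the LPS co-receptor, gave 2.69 ± 0.24, and Cd36, a scavenger receptor, 1.45 ± 0.30. With IL4, 1 was called higher, Cd36 (2.06 ± 0.30), and 4 lower, led by Cd14 (-1.67 ± 0.24). Of 7 plasminogen system genes, to which the annexin A2 and S100A10 complex belongs by function, 3 rose and 4 fell with LPS, and 4 rose and 2 fell after median-of-ratios scaling. Serpinb2, an inhibitor of plasminogen activators, stood at 1075 TPM with LPS and 0.355 untreated, and Plau, the activator urokinase, at 5.75 and 152. With IL4, Plau rose (1.01 ± 0.25) and Serpine2 fell (-0.67 ± 0.19).

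Of 10 genes for recognition of phosphatidylserine, the lipid that annexin A5 binds, 9 fell and 1 rose with LPS in WT (median -1.63), where 61.9% of all genes fell and 13.9% rose. Gas6, the bridge to the TAM receptors, gave -5.09 ± 0.15, Pros1 -2.99 ± 0.16 and Havcr2 -2.09 ± 0.33, while Timd4 rose by 1.84 ± 0.25, and 8 or 7 fell under the other scalings. With IL4 1 rose and 1 fell, the fall not passing after median-of-ratios scaling. Of 8 membrane repair genes 4 rose and 2 fell with LPS (6 and 0 after median-of-ratios scaling), and 3 rose with IL4. Ahnak, a large scaffold that binds the annexin A2 and S100A10 complex, gave 1.97 ± 0.44 with LPS and 2.18 ± 0.44 with IL4. Of 12 cytoskeletal partners 5 rose and 4 fell with LPS (6 and 1 after median-of-ratios scaling), and 6 rose and 0 fell with IL4 under all 3 scalings. Among them the actin crosslinker Actn1 gave -1.54 ± 0.18 and the membrane linker Msn 1.28 ± 0.11 with LPS, and the galectin Lgals3 2.18 ± 0.42 with IL4.

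Between KO and WT with LPS, 14.4% of all genes were called higher and 13.2% lower. Of the 5 tested names on the list of other S100 genes, S100pbp included, 2 were higher and 0 lower. S100a1 was higher (0.96 ± 0.14), and after median-of-ratios scaling 1 name was higher and 1 lower. Of 6 other annexins 3 were higher and 1 lower, led by Anxa4 (0.997 ± 0.20) and Anxa3 (0.89 ± 0.091). The receptors gave 2 higher and 2 lower, with Emb at 2.00 ± 0.20, and membrane repair 0 and 3. Recognition of phosphatidylserine gave 5 higher and 1 lower, with Pros1 at 0.91 ± 0.15 and Axl at -1.08 ± 0.30, and the cytoskeletal partners 4 and 2, with Actn1 at 1.07 ± 0.17 and Vim at -1.38 ± 0.23. With pIC, where 3.4% of all genes were called higher and 8.11% lower, the cytoskeletal partners had 5 of 12 higher and 0 lower, led by Flna (0.82 ± 0.12), and phosphatidylserine recognition 5 of 10 and 0, led by Timd4 (1.19 ± 0.17). Of the plasminogen genes 2 of 7 were higher, Plaur (1.57 ± 0.10) and Plau (1.08 ± 0.20), and 0 lower. The other annexins gave 1 of 5 higher, Anxa3 (0.49 ± 0.11), and the receptors 1 of 11, Cd36 (0.92 ± 0.21). Membrane repair gave 1 higher and 1 lower of 8 (2 and 0 after median-of-ratios scaling), and the list of other S100 genes, S100pbp included, none of 5.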

How the data were processed

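RNA from primary mouse microglia (300 ng per library, mRNA kit, per the labels' protocols) was sequenced by the authors, and values per gene were deposited as TPM, in separate tables for the 44 UT, LPS and IL4 libraries and the 15 pIC libraries. Named in the submitters' processing notes are DRAGEN, FastQC, Picard, Trimmomatic and the mm10 build. No version, annotation or strand setting was found in the sources used, so overlapping genes and near-identical copies cannot be told apart with certainty. Depth is unknown, and p-values measure only the spread between these libraries. Genes that reached 1 TPM in 4 or more libraries of their table were fitted on log2(TPM + 1) with limma 3.58.1 in R 4.3.3 (lmFit, a mean per group, eBayes with a trend), and every adjusted p is limma's, adjusted by Benjamini-Hochberg over 15908 or 13919 genes. No test was made between tables. Log2 differences, given as estimate ± SE, understate changes of low genes. In all 15 comparisons were tested and 5 described. The procedure was tested on simulated data. Same-numbered libraries deviated together (lowest correlation over 0.1) for LPS or IL4 against UT in KO and in WT and for HET against WT untreated (from 0.117 to 0.558), so the numbers were read as pairs there. The main fit left this pairing out, and only the alternative with the replicate block used it. Alternatives were a pseudocount of 0.1, no filter, median-of-ratios scaling, quantile normalization, only the groups compared, a replicate block and leaving out each library. The members, the gene lists (up to 4 called genes of each named) and the rule for the 5 most similar genes were chosen with earlier results of these data known.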

Additional observations from a re-analysis of the deposited data

Results flagged for a closer look

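Within the 12 groups of each of the 9 genes, 108 groups in all, the highest or lowest library was compared with the rest by its gap over the group's range, and 10 groups held a library far from the others. For independent, normally distributed values chance gives about 1 in 20 such groups, that is 5%. TPM need not be distributed so, and the groups of different genes share libraries, so nothing is read from the count. S100a8, near the bottom of the scale outside LPS, gave 3 of them: HET with IL4 replicate 4 at 1.89 TPM (the others from 0.351 to 0.429), WT with IL4 replicate 5 at 1.84 TPM (0.339 to 0.722) and KO with pIC replicate 4 at 11.4 TPM (1.74 to 4.19). S100a6 was high in replicate 2 of HET, at 14.9 TPM with LPS (the others from 4.41 to 7.24) and at 129.9 TPM with IL4 (21.0 to 49.9). S100a10 was high in HET with LPS replicate 5 at 48.9 TPM (38.3 to 41.3) and in untreated WT replicate 1 at 58.8 TPM (23.3 to 27.2). S100a11 was high in HET with IL4 replicate 5 at 95.5 TPM (20.5 to 40.9), Anxa2 in untreated HET replicate 5 at 187.9 TPM (90.7 to 114.4), and S100a4 in untreated WT replicate 2 at 76.2 TPM (25.0 to 32.9). All 10 were the highest library of their group. For S100a4, replicates 2 and 5 were also the highest in untreated KO, at 107 and 99.2 TPM, and untreated WT has no replicate 5 here.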

How the results depend on the processing

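Among the 9 members, counts of calls stayed within 1.5 times the main count under every alternative run, and the comparisons with 0 calls kept 0. This does not hold for the other lists or for all genes, whose counts moved with the scaling: other annexins with LPS in WT had 2 higher and 3 lower, and 4 and 1 after median-of-ratios scaling. Counts without overlap moved for KO against HET with LPS, where 0 became 1 under median-of-ratios scaling and 1 under quantile normalization, Crip1 in both. Leaving out 1 library gave 0 to 2 genes there (Crip1, S100a4, S100a6, S100a10 or S100a11, depending on the library) and 2 to 5 for KO against HET with pIC, the 5 without KO replicate 1. The count for KO against WT ran from 3 to 4 with LPS and from 4 to 5 with pIC, and either scaling left 2 with LPS, S100a4 and Crip1. With pIC S100a4 joined under median-of-ratios scaling (5 genes) and took the place of S100a8 under quantile normalization. Without 1 library, member calls ran from 7 to 8 for LPS in HET and in WT, 6 to 6 for LPS in KO, 4 to 4, 4 to 6 and 4 to 5 for IL4 in KO, HET and WT, and 0 to 0 for the tested genotype comparisons and the IL4 response. Under the other alternatives they ran from 5 to 7 for LPS in KO and from 3 to 6 for IL4 in KO. Estimates near 0 changed sign for Anxa5: in KO with LPS to 0.47 under median-of-ratios scaling, in HET with IL4 to 0.042 under that scaling and in KO with IL4 to -0.087 under quantile normalization, and without 1 library they ran from -0.14 to 0.032, from -0.12 to 0.097 and from -0.019 to 0.13 in the same order. The cause was not tested. With the replicate block Anxa1 in KO with LPS (0.40, adjusted p = 0.00922), S100a6 in KO with IL4 (0.94, adjusted p = 0.0334) and S100a8 with IL4 in KO, HET and WT (-0.78, -0.87 and -0.99) were called, and no call was lost. Same-numbered HET libraries did not all deviate together (lowest correlation -0.022 for LPS and 0.053 for IL4), so the HET value is a hint. The size of the KO difference of Crip1 with LPS was 3.14 with a pseudocount of 0.1, against 2.04, and that of S100a8 with pIC 2.02, against 1.35. Low TPM without known depth limits both.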
